A study of Solanum lycopersicum with 4 samples.

Results

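Jasmonate biosynthesis was followed through 8 tomato (Solanum lycopersicum) genes, chosen by gene ID for the steps of the pathway, with earlier results of these data known. They were the lipoxygenase genes LOXA (Solyc08g014000) and LOXD (Solyc03g122340), the allene oxide synthase genes AOS1 (Solyc04g079730) and AOS2 (Solyc11g069800), the allene oxide cyclase gene AOC (Solyc02g085730), the OPDA reductase gene OPR3 (Solyc07g007870), the acyl-CoA oxidase gene ACX1A (Solyc08g078390) and the jasmonate-amino acid synthetase gene JAR1 (Solyc10g011660). LOXA was included by that choice although its enzyme is known to act mainly outside the jasmonate route, so main counts are also given without it, an alternative chosen after seeing the data. All 8 were found among the 33976 gene IDs of the tables, with 1 transcript each. Floral apices and closed flower buds were profiled by RNA sequencing, with 2 libraries of the genotype 156OE, which is MT that overexpresses the microRNA miR156, and 2 libraries of MT itself. MT commonly stands for Micro-Tom, a dwarf tomato cultivar. Both groups thus share the MT background. The design compares expression between these genotypes, in a study of how gibberellin and the miR156 and SBP-box module act in floral meristems and fruit patterning. The labels name neither the promoter of the miR156 construct, nor the number of transgenic lines, nor the age of the plants. They do not say that replicates came from separate plants, and p-values therefore reflect only how these samples vary, which may be technical.

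Jasmonate is made from linolenic acid of chloroplast membranes. In the chloroplast a lipoxygenase adds oxygen to the fatty acid, allene oxide synthase turns the hydroperoxide into an unstable epoxide, and allene oxide cyclase closes the ring to give OPDA. In the peroxisome OPR3 reduces OPDA and rounds of beta-oxidation, opened by an acyl-CoA oxidase, shorten its side chain. JAR1 then joins jasmonate to isoleucine, the form that the receptor COI1 binds together with JAZ repressors, which frees MYC2 to activate its targets. In tomato the hormone is known for wound responses and for flower and seed development, and plants without functional COI1 are female sterile.

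Depth differed between libraries. The 156OE libraries held 8440384 and 1685657 assigned reads, and the MT libraries 11203505 and 9369713. A floor of 3 reads corresponded to 1.78 CPM (reads per 1000000 assigned reads) in 156OE replicate 2 and to 0.268 to 0.355 CPM in the other libraries. Mature miR156 was not measured here. SBP3 (Solyc10g009080) belongs to the SBP-box family, which holds the known miR156 targets. It had 8.29 and 2.37 CPM in 156OE, from 70 and 4 reads, and 28.3 and 23.2 CPM in MT. Its edgeR log2 change was -1.97 ± 0.40 (SE, adjusted p = 0.283 over all genes). CNR (Solyc02g077920), another gene of that family, had 4.74 and 0 CPM in 156OE, from 40 and 0 reads, and 4.73 and 6.62 CPM in MT. All 5 floral organ identity genes examined (TM6, TAG1, TAGL1, TM5 and TM29) had reads in every library, TAGL1 only 2 in 156OE replicate 2. Each was highest in 156OE replicate 1 and lowest in 156OE replicate 2, and their summed level was 257.6 and 101.5 CPM in 156OE and 177.1 and 179.1 CPM in MT. In bulk tissue, fewer cells of a type and less RNA per cell cannot be told apart.

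Most jasmonate biosynthesis genes had higher values in 156OE than in MT, but none passed the test across all genes. AOC averaged 500 ± 173 CPM in 156OE and 150 ± 16.1 CPM in MT, and JAR1 averaged 26.3 ± 1.92 CPM in 156OE and 16.1 ± 0.591 CPM in MT (SD, n = 2 each). LOXA, AOS1, LOXD and OPR3 had their high values mainly in 1 of the 156OE libraries, and AOS2 and ACX1A lay near MT in both. In edgeR's quasi-likelihood test with Benjamini-Hochberg adjustment over 18385 genes, 0 of 8 were called, the lowest adjusted p being 0.262. The background was low too, with 0.00544% of tested genes called higher and 0% called lower. At an unadjusted edgeR p under 0.05, 4 of 8 were higher (LOXA, AOS1, AOC and JAR1) and 0 lower, against 6.28% of tested genes higher and 5.11% lower. Without LOXA these were 3 of 7 higher and 0 lower, and the median log2 change of the 7 was 0.84 (0.24 without 156OE replicate 2). The median log2 change of the 8 genes was 1.02, against 0.01 over all genes tested. Leaving out 156OE replicate 2 gave 0.51 and leaving out 156OE replicate 1 gave 1.06, and it was 0.64 in limma on log2(TPM + 1), where the median of all genes was -0.17. DESeq2 called 1 of the 8 (AOC), with a background of 0.789% called higher and 0.294% lower. Without the low-count filter edgeR called AOC as well, with a background of 0.234% higher and 0.115% lower. The genes were chosen with earlier results known, so counts set beside such shares describe the set and do not test it.

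Both 156OE libraries lay above both MT libraries in CPM for 5 of the 8 genes (LOXA, AOS1, AOC, OPR3 and JAR1), and none lay below. Without LOXA these were 4 of 7. The background of such separated genes was 16.2% higher and 29.7% lower in 156OE. That split moved with the scaling. With TMM-scaled CPM it was 22.8% higher and 23.8% lower and 6 of the 8 genes were separated, ACX1A being added, and in TPM (transcripts per 1000000, scaled by length) it was 11.6% and 38.5% with the same 5 genes. The summed level of the 8 genes was 715.1 and 1325 TPM in 156OE, against 487.9 and 468.5 TPM in MT.

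**Figure D1:**
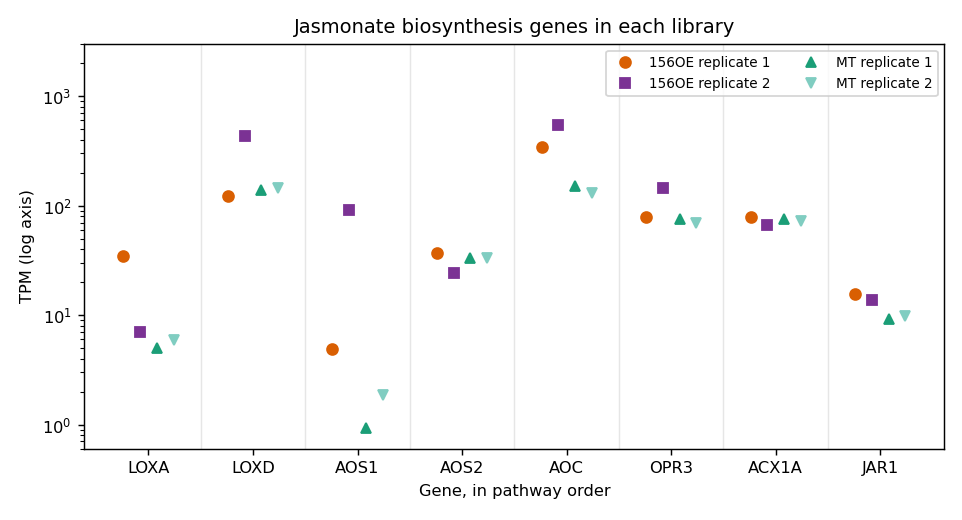
TPM of the 8 genes on a log axis, in pathway order, with 1 point per library and the 156OE libraries left of the MT libraries. The MT points lie close together for every gene but AOS1 (0.934 and 1.86 TPM), and the 156OE points are far apart for LOXA, LOXD and AOS1.

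The lipoxygenase genes LOXA and LOXD differed in which 156OE library was high. LOXD is the chloroplast lipoxygenase of the wound-induced jasmonate route, and LOXA is known to oxygenate the fatty acid mainly at another position. LOXA had 35.0 and 7.02 TPM in 156OE replicates 1 and 2, from 802 and 33 reads, and 4.98 and 5.93 TPM in MT, from 145 and 143 reads. It was thus high in 156OE replicate 1, and the other 156OE library lay just above MT. Its log2 change was 2.16 ± 0.62 (SE; 95% interval 0.57 to 3.74, edgeR adjusted p = 0.368), 0.66 without 156OE replicate 1 and 2.77 without 156OE replicate 2 (adjusted p = 1.41e-09). LOXD had 123 and 430 TPM in 156OE, from 3064 and 2194 reads, and 139 and 143 TPM in MT, from 4383 and 3757 reads. Here 156OE replicate 2 was the high library, and 156OE replicate 1 lay below both MT libraries, so that the groups overlapped. LOXD gave a log2 change of 1.21 ± 0.63 (edgeR adjusted p = 0.512), 1.90 without 156OE replicate 1 (adjusted p = 6.66e-14) and -0.12 without 156OE replicate 2 (adjusted p = 0.574).

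The allene oxide synthase genes had unlike values in 156OE. AOS1 had 4.86 and 92.0 TPM in 156OE, from 57 and 222 reads, and 0.934 and 1.86 TPM in MT, from 14 and 23 reads. Both 156OE libraries were above MT, at 3.65 and 71.1 times the MT mean in CPM. Its log2 change was 5.30 ± 1.58 (SE; 95% interval 1.26 to 9.35, edgeR adjusted p = 0.370). The value was 6.37 without 156OE replicate 1 (adjusted p = 5.39e-16) and 1.90 without 156OE replicate 2 (adjusted p = 0.00531). AOS2 had 37.2 and 24.0 TPM in 156OE, from 414 and 55 reads, and 33.2 and 33.0 TPM in MT, from 472 and 388 reads. One 156OE library was above and the other below the MT pair. The log2 change of AOS2 was 0.08 ± 0.16 (95% interval -0.34 to 0.50, edgeR adjusted p = 0.894), which covers a fold between 0.789 and 1.41. It was -0.17 without 156OE replicate 1 and -0.14 in limma on log2(TPM + 1).

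AOC, whose enzyme fixes the stereochemistry of OPDA, had the highest level of the 8 in both 156OE libraries. It had 342 and 547 TPM in 156OE, from 3184 and 1049 reads, and 151 and 132 TPM in MT, from 1802 and 1294 reads. Each 156OE library was well above each MT library, at 2.52 and 4.16 times the MT mean in CPM. The log2 change was 1.86 ± 0.32 (SE; 95% interval 1.05 to 2.66), with an edgeR adjusted p of 0.262 and a DESeq2 adjusted p of 7.25e-07. Its value stayed above 0 in all 13 alternatives, between 1.34 and 2.24. It was called without 156OE replicate 1 (2.24, adjusted p = 9.71e-14) and without 156OE replicate 2 (1.34, adjusted p = 3.95e-07), where the lone 156OE library is assumed to vary like the MT pair.

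Of the peroxisomal steps, ACX1A lay near MT, and OPR3 did so only in 156OE replicate 1. OPR3 had 79.5 and 146 TPM in 156OE, from 970 and 366 reads, and 74.8 and 69.8 TPM in MT, from 1165 and 898 reads. Only the second 156OE library stood clear of MT, and the first exceeded the higher MT library slightly. The log2 change of OPR3 was 0.84 ± 0.36 (SE; 95% interval -0.08 to 1.75, edgeR adjusted p = 0.457), 1.30 without 156OE replicate 1 (adjusted p = 4.5e-08) and 0.21 without 156OE replicate 2 (adjusted p = 0.367). ACX1A had 78.1 and 66.0 TPM in 156OE, from 1558 and 270 reads, and 75.0 and 73.0 TPM in MT, from 1901 and 1532 reads. The MT pair lay between the 156OE libraries. Its log2 change was 0.14 ± 0.10 (95% interval -0.12 to 0.41, edgeR adjusted p = 0.617), a fold between 0.918 and 1.33, and it was -0.04 in limma on log2(TPM + 1).

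JAR1, which makes the active conjugate, had the most even values among the genes whose libraries were separated. It had 15.6 and 13.6 TPM in 156OE, from 233 and 42 reads, and 9.22 and 9.82 TPM in MT, from 176 and 155 reads. Both 156OE libraries were above MT by a like amount, at 1.71 and 1.55 times the MT mean in CPM. With 42 reads, 156OE replicate 2 had a 95% counting interval of 18.0 to 33.7 CPM. That interval overlapped those of the MT libraries (13.5 to 18.2 and 14.0 to 19.4 CPM). The log2 change was 0.80 ± 0.15 (SE; 95% interval 0.41 to 1.18), with an edgeR adjusted p of 0.264 and a DESeq2 adjusted p of 0.294. Leaving out 1 library at a time kept the log2 change between 0.76 and 0.84.

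**Figure D2:**
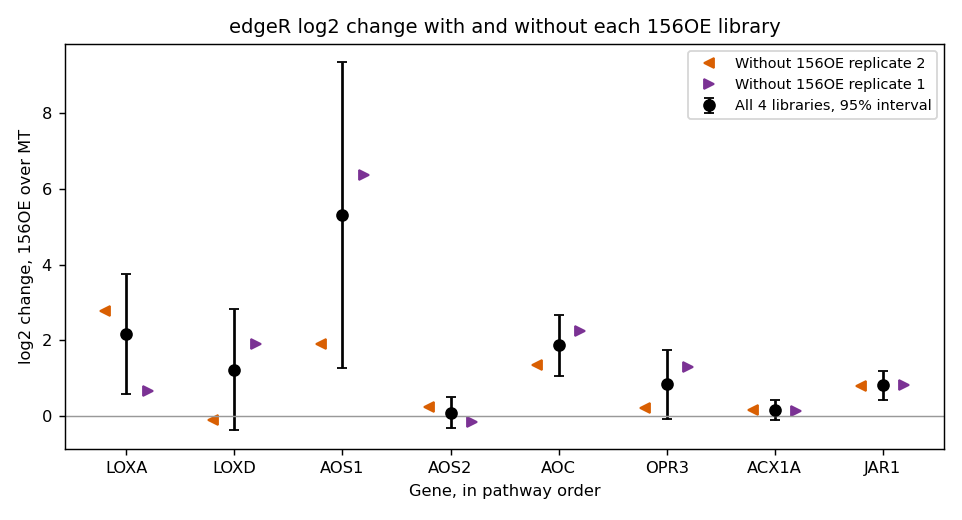
edgeR log2 change of each gene, 156OE over MT, with its 95% interval from all 4 libraries (circles), and the estimates without 156OE replicate 2 (left triangles) and without 156OE replicate 1 (right triangles). JAR1 and ACX1A gave like estimates either way, whereas LOXA, LOXD, AOS1 and OPR3 depended on the library. AOC also moved, from 2.24 without 156OE replicate 1 to 1.34 without 156OE replicate 2. AOS2 stayed small but changed sign (-0.17 and 0.24 in the same order).

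Counted over the whole set, 5 of the 8 genes were called higher without 156OE replicate 1 (LOXD, AOS1, AOC, OPR3 and JAR1), with a background of 9.45% of tested genes higher and 3.89% lower. Without 156OE replicate 2, 4 of the 8 were called higher (LOXA, AOS1, AOC and JAR1), with a background of 4.08% higher and 3.11% lower. These fits share the MT pair, so genes named in both are no independent repeat. In each fit the lone 156OE library is assumed to vary like the MT pair, so spread within 156OE is not measured. Without either MT library 0 genes were called.

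The balance within the pairs of like enzymes differed between libraries. Of the reads of AOS1 plus AOS2, AOS1 took 12.1% (95% Wilson interval 9.46 to 15.36) in 156OE replicate 1 and 80.1% (75.05 to 84.42) in 156OE replicate 2. In MT its share was 2.88% (1.72 to 4.78) and 5.60% (3.76 to 8.26). Both 156OE shares were thus above both MT shares, and AOS1 exceeded AOS2 in 156OE replicate 2 alone. Of the reads of LOXA plus LOXD, LOXA took 20.7% (19.5 to 22.05) and 1.48% (1.06 to 2.07) in 156OE, against 3.20% (2.73 to 3.76) and 3.67% (3.12 to 4.30) in MT. One 156OE share was above and the other below both MT shares. These intervals cover counting error only, and the shares were not tested, because an exact two-sided permutation test of 2 libraries against 2 reaches no p smaller than 1/3.

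**Figure D3:**
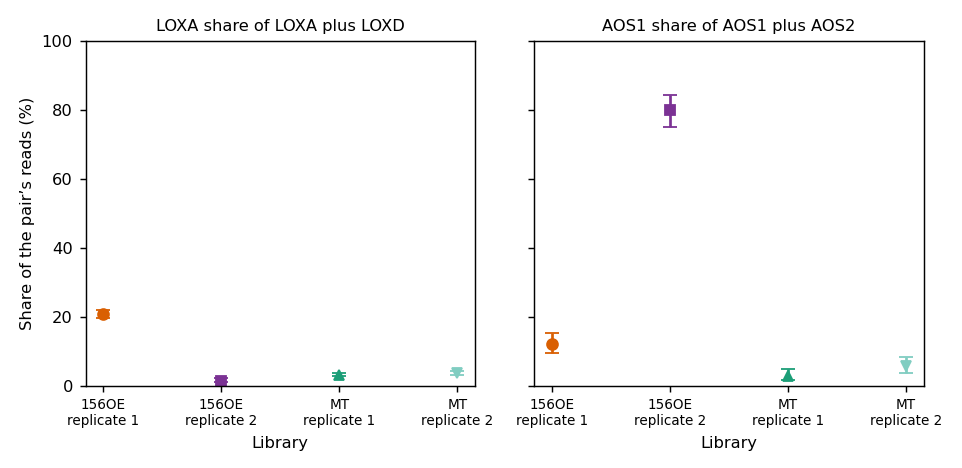
Share of the reads of LOXA plus LOXD taken by LOXA (left panel) and of AOS1 plus AOS2 taken by AOS1 (right panel) in each library, in percent, with 95% Wilson intervals. LOXA stood out in 156OE replicate 1 at 20.7%, and AOS1 in 156OE replicate 2 at 80.1%.

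Compared per length within a library, AOC and LOXD held the first places and the order below them varied. In 156OE, AOC was at 2.77 and 1.27 times LOXD in TPM, against 1.09 and 0.918 times in MT. AOC stood at 4.30 and 3.74 times OPR3, the next step, in 156OE, against 2.02 and 1.89 times in MT. The 156OE ratios of AOC to OPR3 were thus close to each other and above both MT ratios, although OPR3 itself differed between the 156OE libraries. AOS1 plus AOS2, the step before AOC, summed to 42.0 and 116 TPM in 156OE and to 34.1 and 34.9 TPM in MT. That sum was 0.123 and 0.212 times AOC in 156OE and 0.226 and 0.265 times in MT, so it was below AOC in every library. AOS1 was the lowest of the 8 in 156OE replicate 1 and in both MT libraries, and the fourth highest in 156OE replicate 2, where LOXA was lowest.

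The 156OE libraries differed from each other by unequal amounts in the 8 genes. Intervals given here cover counting error only, not the spread between samples, and most of them excluded 1. The CPM ratio of 156OE replicate 2 to replicate 1 was 19.5 for AOS1 (exact 95% interval 14.5 to 26.6), 3.58 for LOXD (3.39 to 3.79), 1.89 for OPR3 (1.67 to 2.13) and 1.65 for AOC (1.54 to 1.77). It was 0.206 for LOXA (0.141 to 0.292), 0.665 for AOS2 (0.493 to 0.883) and 0.868 for ACX1A (0.760 to 0.988). For JAR1 it was 0.903, with an interval that includes 1 (0.634 to 1.26). After TMM scaling the ratio of ACX1A was 0.981 and its interval included 1 as well (0.859 to 1.12). Between the MT libraries the only interval of the 8 that excluded 1 was that of AOC, at 0.859 (0.799 to 0.923). Over all genes tested, the median log2 ratio of CPM + 1 between the 156OE libraries was -0.18, and the central 95% of genes lay between -1.36 and 1.57. A difference as large as that of AOS1 was found in 0.305% of tested genes, as large as that of LOXA in 1.73% and as large as that of LOXD in 2.77%. For OPR3 and AOC these shares were 12.6% and 18.9%, and for AOS2, ACX1A and JAR1 26.5%, 66.5% and 75.8%, so ACX1A and JAR1 differed by less than most tested genes.

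**Figure D4:**
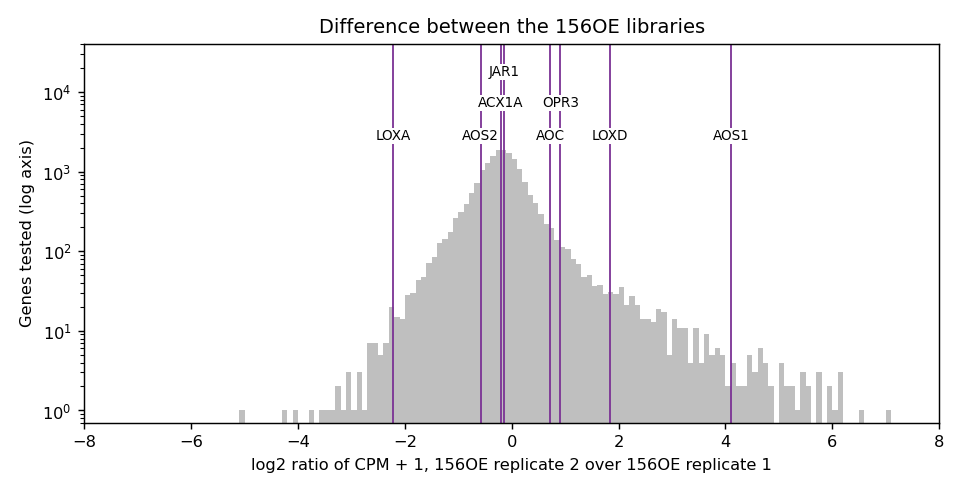
Distribution over all genes tested of the log2 ratio of CPM + 1 between 156OE replicate 2 and 156OE replicate 1 (grey, log axis of gene number), with the 8 genes marked by lines. AOS1 (4.10) and LOXD (1.84) lie in the upper tail and LOXA (-2.22) in the lower tail, while JAR1 and ACX1A lie near the median.

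Other enzymes of the oxylipin pathways mostly lay near MT. Of 8 such genes with a checked name 5 were tested, and 0 passed in edgeR in either direction, with a median log2 change of 0.26. AOS3 (Solyc10g007960), an allene oxide synthase known for hydroperoxides outside the jasmonate route, had 33 and 7 reads (3.91 and 4.15 CPM) in 156OE and 5 and 1 reads (0.446 and 0.107 CPM) in MT. Both 156OE libraries were above MT. The fitted log2 change was 3.86 ± 0.64 (SE), from very few MT reads, with an adjusted p of 0.262 in edgeR and 0.0319 in DESeq2. FAD7 (Solyc06g051400), which makes the linolenic acid substrate, had 184 and 306 CPM in 156OE and 164 and 167 CPM in MT (log2 change 0.67 ± 0.30, edgeR adjusted p = 0.471). Its high library was 156OE replicate 2, as for LOXD and OPR3. The hydroperoxide lyase gene HPL (Solyc07g049690), which draws the same hydroperoxides into leaf volatiles, had 12.2 and 10.1 CPM in 156OE and 11.5 and 11.0 CPM in MT. OPR1 (Solyc10g086220), an OPR3 relative, had 59.7 and 47.5 CPM in 156OE and 43.8 and 52.3 CPM in MT. A further relative, OPR2 (Solyc01g103390), had 9.86 and 7.83 CPM in 156OE and 8.66 and 12.9 CPM in MT. LOXB and LOXC, with at most 17 reads in a library, and DES, with 0 reads in every library, were too low to be tested.

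Genes of perception and of the response also differed between the 156OE libraries, and 0 of the 3 tested in each of these lists passed in edgeR. The activator gene MYC2 (Solyc08g076930) had 58.7 and 331 CPM in 156OE and 88.8 and 73.1 CPM in MT. The repressor gene JAZ2 (Solyc12g009220) had 34.6 and 279 CPM in 156OE and 28.7 and 19.4 CPM in MT (edgeR log2 change 2.81 ± 1.02, SE, adjusted p = 0.419). Both were high in 156OE replicate 2, and MYC2 was below MT in 156OE replicate 1. The receptor gene COI1 (Solyc05g052620) had 48.0 and 29.7 CPM in 156OE and 38.4 and 42.8 CPM in MT. The 3 genes of inducible proteins were instead higher in 156OE replicate 1 than in 156OE replicate 2. The threonine deaminase gene TD2 (Solyc09g008670) had 122 and 65.3 CPM in 156OE and 9.55 and 6.62 CPM in MT (log2 change 3.63 ± 0.32, edgeR adjusted p = 0.149, DESeq2 adjusted p = 4.22e-21). The leucine aminopeptidase gene LAPA1 (Solyc12g010020) had 235 and 129 CPM in 156OE and 110 and 101 CPM in MT, with reads that its near-identical relatives could share. The arginase gene ARG2 (Solyc01g091170) had 196 and 72.4 CPM in 156OE and 136 and 115 CPM in MT.

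Genes of rapid stress responses were high in the same library as AOS1, LOXD and OPR3. WRKY40 (Solyc06g068460), a stress-induced transcription factor gene, had 9.83 and 148 CPM in 156OE and 35.3 and 25.2 CPM in MT. CBF1 (Solyc03g026280), of the cold-response factors, had 0 and 45 reads in 156OE (0 and 26.8 CPM) and 20 and 2 reads in MT (1.83 and 0.213 CPM). The summed level of both was 9.8 and 174.5 CPM in 156OE and 37.1 and 25.4 CPM in MT. Neither passed in edgeR (adjusted p = 0.651 and 0.559). This list, the lower floral organ identity level and the low depth of 156OE replicate 2 all moved with the high values of AOS1, LOXD and OPR3 in that library, and their part in them was not tested.

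**Figure D5:**
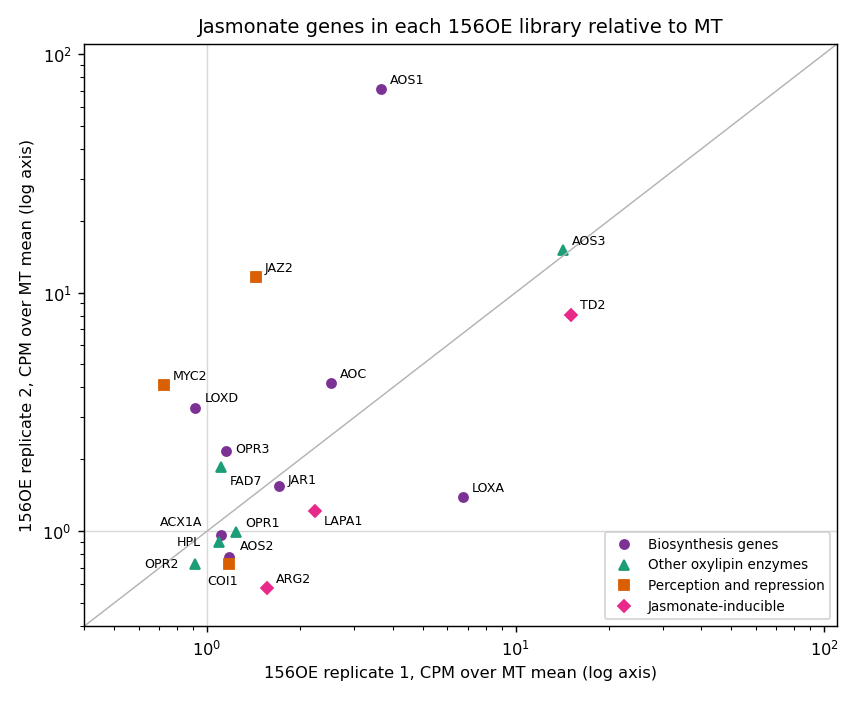
CPM over the MT mean in 156OE replicate 1 (horizontal) and 156OE replicate 2 (vertical), on log axes. Shown are the biosynthesis genes and the other jasmonate genes, except LOXB, LOXC and DES, which were too low to be tested. The diagonal marks equal ratios. AOS1, JAZ2, MYC2 and LOXD lie above the diagonal, LOXA and TD2 below it, and JAR1 and AOS3 near it. The place of AOS3 rests on 5 and 1 reads in MT and 7 reads in 156OE replicate 2.

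By likeness of profile, the genes paired as follows. The measure was the root mean square difference of log2(CPM + 1), each centred on its MT mean, over the 4 libraries and among 30 other listed genes, so it is a description of few points that share libraries. LOXD was nearest to MYC2 (0.25) and OPR3 to FAD7 (0.13), all of them high in 156OE replicate 2. AOS1 was nearest to JAZ2, though at a distance of 1.21. AOS2 was nearest to COI1 (0.08) and ACX1A to HPL (0.05), genes that stayed near MT. JAR1 was nearest to LAPA1 (0.27) and AOC to the Rubisco small subunit gene RBCS3 (0.30), with AOS3 next (0.32). LOXA had its nearest profile in LAPA1, at 0.78.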

How the data were processed

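The deposited tables hold Salmon transcript quantifications of 4 libraries. The submitters' processing notes also name Trimmomatic, HISAT2, Picard and SAMtools, without versions. The build of the genome and the source of the gene models were not given in the sources used here. Estimated counts, deposited by the authors as reads per transcript, were not normalized, and 22 of 32 values of the 8 genes were not whole (tolerance 0.001), so some reads were shared between transcripts. They were rounded before testing. TPM values deposited by the authors sum to 1000000 per library. They were used to compare genes, with the deposited lengths and effective lengths behind them.

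After filterByExpr, 18385 genes, including all 8, entered a two-sided quasi-likelihood test in edgeR 4.0.16 and R 4.3.3, with TMM scaling, genotype as the term and a threshold of 0.05 on adjusted p. Standard errors are the log2 change over the square root of F. The fit weights libraries by depth, so a log2 change can differ from that of the CPM means. Alternatives covered scaling, filtering, DESeq2 1.42.0, limma 3.58.1 on log2(TPM + 1) and log2(TPM + 0.1), effective lengths, a replicate block and leaving out each library. Code was tested on simulated data.

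Gene names, which the files do not hold, were recalled and kept only where the RefSeq table (assembly SLM_r2.1) has the symbol on the same chromosome and within 0.03 of its relative place. This admitted 34 of 66 IDs, including all 8. A close neighbour would pass too. The other 32 entered no list, so most JAZ genes were not analysed here. The 8 genes and the lists were chosen with earlier results of these data known. Named beside the 8 were, per list, up to 3 genes with the lowest p and oxylipin enzymes with at least 10 CPM on average; OPR2, LOXB, LOXC, DES, SBP3 and CNR were added. A planned promoter motif search was not run, since no sequences were used here.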

Additional observations from a re-analysis of the deposited data

How the results depend on the processing

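Over all genes edgeR called 1 gene, and that count was 1 with DESeq2 size factors, with library totals only and with effective lengths. It was 85 with no low-count filter, 199 in DESeq2, and 0 in limma on log2(TPM + 1) or log2(TPM + 0.1). Leaving out 1 library at a time gave 0 to 2453 genes called (2453 without 156OE replicate 1, 1322 without 156OE replicate 2 and 0 without either MT library). Of the 8 jasmonate genes 0 were called, against 1 (AOC) with no low-count filter (adjusted p = 0.0354) and in DESeq2, and 0 to 5 when leaving out 1 library. The replicate numbers are not stated to pair the libraries. Same-numbered libraries deviated from their group means with a correlation of -0.251. With the replicate block 0 genes were called, the lowest adjusted p of the 8 being 0.481. A crossed block, chosen after seeing the data, also called 0 genes. In log2(TPM + 1) the median of all genes moved to -0.17, and to -0.19 with 0.1 added. In these settings AOS2 was at -0.14 and -0.15 and ACX1A at -0.04 in both, which is above that median. Leaving out 1 library at a time gave -0.17 to 0.24 for AOS2 and -0.12 to 1.90 for LOXD. Of 104 further values of log2 changes 6 changed sign. In settings that kept all libraries, only AOC passed the threshold that its main edgeR value missed, with no low-count filter and in DESeq2. The LOXA share of the lipoxygenase pair in 156OE replicate 1 was 22.14% of TPM, outside its counting interval, and the other 7 shares lay inside theirs. Depth limited 156OE replicate 2 most, where LOXA had 33 reads and JAR1 42.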

Other observations

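Genes of leaf photosynthesis were examined as a list of 5 (RBCS3, RBCS1, CAB1A, CAB1B and CAB3B), of which 0 passed in edgeR. Their summed level was 756.6 and 749.3 CPM in 156OE and 480.8 and 531.1 CPM in MT. The sum hid unequal members in 156OE replicate 2. RBCS3 (Solyc02g085950), a Rubisco small subunit gene, had 1.74 and 3.52 times the MT mean in 156OE replicates 1 and 2 (edgeR adjusted p = 0.340). The light-harvesting gene CAB1A (Solyc02g070970) had 1.70 and 0.336 times the MT mean, and RBCS1 (Solyc02g063150) 1.65 and 0.815 times. Every one of the 5 was above the MT mean in 156OE replicate 1, and 4 of them were below it in 156OE replicate 2.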
